A study of Mus musculus with 8 samples.

Results

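Scara5 and 9 other genes of cellular iron handling were followed in cultured mouse tail tendon fibroblasts with and without scleraxis, the tendon transcription factor encoded by Scx. The genes were taken by symbol from the deposited count table and make up 10 of its 24982 genes. Scara5 entered the list because its level differed between ScxKO and ScxWT cells, and the other genes were added for their roles in iron uptake, storage, export and regulation with the results of this contrast known. Their ScxKO and ScxWT values are therefore given as a description, without p-values, and a call in the fit across all genes is reported for them only as a count beside the share of all genes called, or as a mark of how far a value depends on single libraries or settings. RNA was sequenced from 4 ScxKO libraries, numbered 2, 3, 4 and 5, in which Scx was deleted, and from 4 ScxWT libraries, numbered 2, 3, 5 and 6, which kept it. All 8 came from cultured tail tendon fibroblasts of the C57Bl/6 strain and all had received 4HT, so the agent was shared by both groups. The labels used here do not give the driver of the deletion, the age of the animals or whether each library had its own animal or culture, so every p-value is set against the scatter of these libraries, and part of that scatter may be technical.

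Cells take up iron bound to transferrin through the transferrin receptor, reduce it in the endosome and carry it to the cytosol, where ferritin stores the excess and ferroportin exports it. Ferritin itself can also be taken up, and Scara5, a class A scavenger receptor, is a cell-surface receptor for it. Iron regulatory proteins bind a short hairpin, the iron-responsive element, in several of these mRNAs. Binding in the 5′ UTR blocks translation of ferritin and ferroportin mRNA, and binding in the 3′ UTR protects the transferrin receptor mRNA from decay.

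The elements are shown because they are the canonical form of the hairpin through which iron acts on the transferrin receptor, ferritin and ferroportin mRNAs. GENCODE M21 coding transcripts were searched on the transcript strand for a C followed by 5 bases, the loop CAGTGN, and 5 bases that pair with the first 5, with at least 4 of 6 paired bases below. The pattern was found in 47 of 21877 coding genes (0.215%), and 4 of the 10 genes held it. Tfrc held 4 elements in its 3′ UTR, and Fth1, Ftl1 and Slc40a1 held 1 each in the 5′ UTR. The unpaired C and the loop are in capitals, and the coordinates are GRCm38.
Tfrc element 1, chr16:32631219-32631247, plus strand: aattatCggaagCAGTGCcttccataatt
Tfrc element 2, chr16:32631598-32631626, plus strand: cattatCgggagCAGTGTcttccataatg
Tfrc element 3, chr16:32631663-32631691, plus strand: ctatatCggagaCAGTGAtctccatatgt
Tfrc element 4, chr16:32631710-32631738, plus strand: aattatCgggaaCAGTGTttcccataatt
Fth1 element 1, chr19:9982732-9982760, plus strand: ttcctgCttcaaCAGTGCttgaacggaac
Ftl1 element 1, chr7:45459779-45459807, minus strand: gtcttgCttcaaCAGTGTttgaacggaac
Slc40a1 element 1, chr1:45925465-45925493, minus strand: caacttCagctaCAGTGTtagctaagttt
The ferritin elements share the stem bases ttcaa and ttgaa around the loop. In the coding transcripts of the other 6 genes these letters were not found with that pairing. The search is strict and misses elements of other forms: it did not find one in Epas1, Cdc14a or Cdc42bpa, which are listed as carrying one, and it did not find the element known in the 3′ UTR of Slc11a2.

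Gene counts per library ranged from 17343228 to 25180790. Levels are given as CPM, the count scaled to the size of the library by TMM factors. The tendon markers were present in every library, Tnmd at 2.44 to 3.04 CPM in ScxKO and 5.86 to 8.13 CPM in ScxWT. Scx had 1 to 3 counts in ScxKO libraries and 132 to 252 in ScxWT libraries. On the second principal component of log2 CPM, ScxWT replicate 5 stood apart from the other libraries. Across 13125 genes tested by edgeR, 1842 were higher and 1902 lower in ScxKO cells at an adjusted p under 0.05.

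Of the 10 genes, Scara5 had by far the largest difference, and Tfrc, Steap3, Slc11a2 and Hmox1 were modestly higher. All 10 passed the filter on low counts. In the fit across all genes 5 of them were called higher and 2 lower in ScxKO cells, where 28.5% of all genes tested were called, 14.0% higher and 14.5% lower. Nothing is read from this count, since the contrast helped to choose the genes. Their median log2 change was 0.13, against -0.01 over all genes tested. Without ScxKO replicate 3 or 4 only 1 was called lower, and without ScxWT replicate 5 it was 3, with Ireb2 added.

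**Figure D1:**
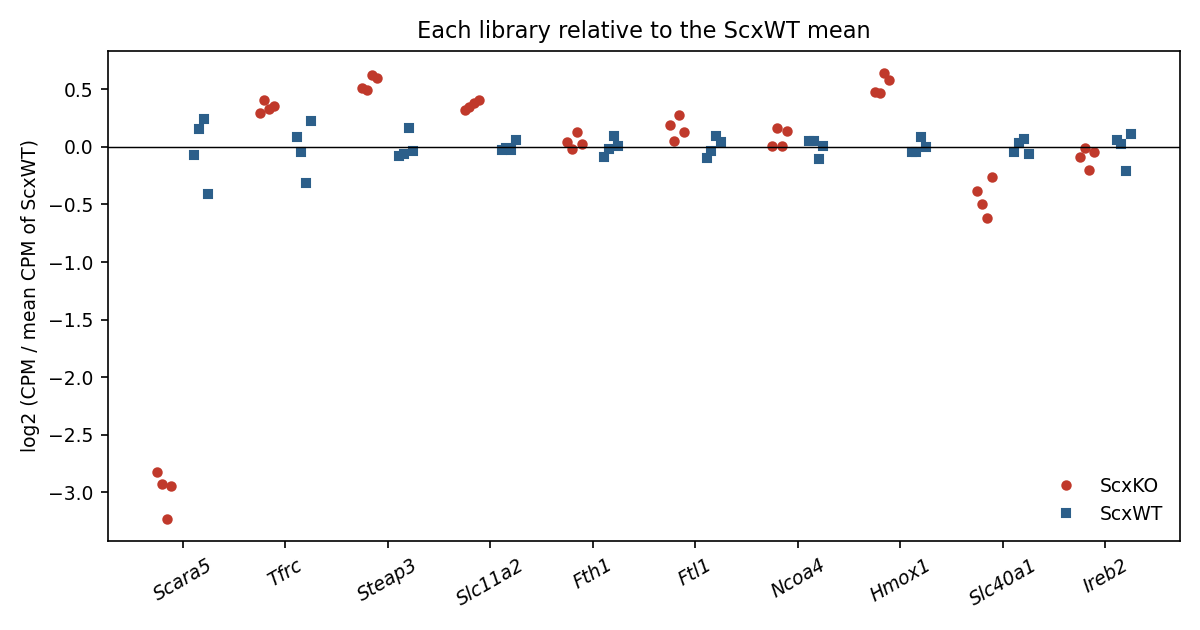
log2 of CPM over the mean CPM of ScxWT, for each of the 10 genes (x axis) in 4 ScxKO libraries (circles) and 4 ScxWT libraries (squares). Scara5 lies about 3 log2 units below the ScxWT mean in every ScxKO library, while no other gene reaches 1 unit in either direction.

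Scara5 (ENSMUSG00000022032.14) lies on the plus strand of chromosome 14, from 65666403 to 65764826 of GRCm38. ScxKO libraries 2, 3, 4 and 5 held 109, 110, 72 and 113 Scara5 counts, and ScxWT libraries 2, 3, 5 and 6 held 861, 817, 1147 and 673. As CPM these were 5.52, 5.15, 4.18 and 5.08 in ScxKO and 37.3, 43.7, 46.2 and 29.4 in ScxWT. The groups did not overlap, and the lowest ScxWT library, replicate 6, stood well above every ScxKO library. Mean Scara5 was 4.98 ± 0.568 CPM in ScxKO and 39.1 ± 7.49 CPM in ScxWT (SD, n = 4 each), so ScxKO cells kept 12.7% of the ScxWT level. The log2 change was -2.97 ± 0.14 (SE), the third lowest of the 13125 genes tested. It lay between -3.08 and -2.86 under the 17 alternatives tried. Scara5 was chosen for its difference in this contrast, so its rank is a description only. In these bulk samples fewer Scara5-expressing cells and less Scara5 RNA per cell cannot be told apart.

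The 2 uptake receptors were set against each other within each library. Per kb of exon, Scara5 RNA amounted to 0.038, 0.0327, 0.0279 and 0.0334 of the RNA of Tfrc, the transferrin receptor gene, in ScxKO libraries 2, 3, 4 and 5. In ScxWT libraries 2, 3, 5 and 6 the ratio was 0.295, 0.378, 0.483 and 0.211. The ferritin receptor mRNA was thus below the transferrin receptor mRNA in every library of both groups. The highest ratio was in ScxWT replicate 5, the library that stood apart, where Scara5 was highest and Tfrc lowest. Without that library the log2 change of Tfrc was 0.25, against 0.34 with all libraries.

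Of the genes that bring in transferrin-bound iron, Tfrc, Steap3 and Slc11a2 were higher in ScxKO cells, while Trf, the transferrin gene and not one of the 10, had 12.3 ± 3.43 CPM in ScxKO and 12.4 ± 1.49 CPM in ScxWT (SD, n = 4 each). Tfrc (ENSMUSG00000022797.16, plus strand of chromosome 16, 32608920 to 32632794) had 135, 146, 139 and 141 CPM in ScxKO libraries 2, 3, 4 and 5, against 117, 107, 88.7 and 129 CPM in ScxWT libraries 2, 3, 5 and 6. Every ScxKO library lay above every ScxWT library, and the ScxWT libraries were the more scattered. Mean Tfrc was 140.4 ± 4.79 CPM in ScxKO and 110.6 ± 17.2 CPM in ScxWT (SD, n = 4 each). On the log2 scale the change was 0.34 ± 0.08 (SE).

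Steap3 (ENSMUSG00000026389.16, minus strand of chromosome 1, 120190757 to 120272705), which encodes the endosomal reductase that turns ferric into ferrous iron, differed more. It had 42.0, 41.5, 45.5 and 44.7 CPM in ScxKO libraries 2, 3, 4 and 5, against 28.0, 28.3, 33.0 and 28.7 CPM in ScxWT libraries 2, 3, 5 and 6. The groups did not overlap even with ScxWT replicate 5, the highest of its group. Mean Steap3 was 43.4 ± 1.96 CPM in ScxKO and 29.5 ± 2.39 CPM in ScxWT (SD, n = 4 each). The log2 change was 0.55 ± 0.06 (SE).

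Slc11a2 (ENSMUSG00000023030.16, minus strand of chromosome 15, 100387898 to 100425072) encodes DMT1, which carries ferrous iron out of the endosome. It had 60.8, 61.7, 63.2 and 64.5 CPM in ScxKO libraries 2, 3, 4 and 5, against 47.9, 48.3, 47.7 and 50.8 CPM in ScxWT libraries 2, 3, 5 and 6. These were the tightest groups among the genes that differed, with means of 62.6 ± 1.64 CPM in ScxKO and 48.7 ± 1.43 CPM in ScxWT (SD, n = 4 each). On the log2 scale the change was 0.36 ± 0.04 (SE). An annotated gene on the opposite strand, Gm5475, overlaps its exons but had 0 to 2 counts in any library.

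By the deposited counts the ferritin subunit mRNAs differed little. Fth1 (ENSMUSG00000024661.7, plus strand of chromosome 19, 9980598 to 9985098), the heavy chain with ferroxidase activity, had 833, 797, 886 and 824 CPM in ScxKO libraries 2, 3, 4 and 5. In ScxWT libraries 2, 3, 5 and 6 it had 761, 796, 865 and 812 CPM, so the groups overlapped. Its log2 change was 0.05 ± 0.05 (SE). Ftl1 (ENSMUSG00000050708.16, minus strand of chromosome 7, 45457944 to 45459884), the light chain, had 1063, 969, 1132 and 1020.4 CPM in ScxKO libraries 2, 3, 4 and 5, against 872, 909, 993 and 958 CPM in ScxWT libraries 2, 3, 5 and 6. Its groups overlapped as well, since ScxKO replicate 3 lay below ScxWT replicate 5. The log2 change of Ftl1 was 0.17 ± 0.05 (SE). It was 0.16 without ScxKO replicate 2, 0.13 without ScxKO replicate 4, 0.14 without ScxWT replicate 2 and 0.16 without ScxWT replicate 3, and in these fits it was not called. Nor was it called with upper-quartile scaling or in fits on replicates 2, 3 and 5 of both groups with and without the replicate number as a block, where the change was 0.14 each time. An annotated gene on the opposite strand, Gm10252, overlaps the exons of Ftl1 and has no row in the count table. Within a library, Fth1 RNA per kb was 0.487 to 0.511 of Ftl1 RNA in ScxKO and 0.527 to 0.544 in ScxWT. These ratios rest on the deposited counts, and near-identical copies of both genes, described below, leave them uncertain.

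Ncoa4, the cargo receptor that takes ferritin to the lysosome for breakdown, lies on the plus strand of chromosome 14 from 32159865 to 32179855 (ENSMUSG00000056234.15). It had 39.3, 43.8, 39.3 and 43.1 CPM in ScxKO libraries 2, 3, 4 and 5, against 40.4, 40.5, 36.3 and 39.2 CPM in ScxWT libraries 2, 3, 5 and 6. The groups overlapped, with a log2 change of 0.08 ± 0.06 (SE).

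Hmox1 (ENSMUSG00000005413.8, plus strand of chromosome 8, 75093621 to 75100589) encodes the inducible heme oxygenase, which frees iron from heme. It had 362, 359.7, 405 and 389 CPM in ScxKO libraries 2, 3, 4 and 5, against 252, 252, 276 and 259 CPM in ScxWT libraries 2, 3, 5 and 6. The groups were clearly apart, with 378.9 ± 21.7 CPM in ScxKO and 259.7 ± 11.3 CPM in ScxWT (SD, n = 4 each). The log2 change was 0.54 ± 0.05 (SE).

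Slc40a1 (ENSMUSG00000025993.10, minus strand of chromosome 1, 45908068 to 45926523) encodes ferroportin, the exporter of ferrous iron, and was scarce in these cells. It had 50, 50, 37 and 61 counts in ScxKO libraries 2, 3, 4 and 5, against 74, 63, 86 and 72 in ScxWT libraries 2, 3, 5 and 6. After scaling for depth the groups did not overlap, at 2.15 to 2.74 CPM in ScxKO and 3.15 to 3.46 CPM in ScxWT. Its log2 change was -0.43 ± 0.13 (SE). It was -0.40 without ScxKO replicate 3 and -0.37 without ScxKO replicate 4, and was not called in either fit. It was also not called by DESeq2, at -0.43, or in the fits on replicates 2, 3 and 5 with and without the block, at -0.39.

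Ireb2 (ENSMUSG00000032293.8, plus strand of chromosome 9, 54863789 to 54912530) encodes iron regulatory protein 2, which binds the elements shown above and is controlled mainly through protein degradation. It had 97.6, 103, 90.4 and 101 CPM in ScxKO libraries 2, 3, 4 and 5, against 108, 106, 89.7 and 112 CPM in ScxWT libraries 2, 3, 5 and 6. The groups overlapped because ScxWT replicate 5 was the lowest library of all 8. On the log2 scale the change was -0.08 ± 0.06 (SE), and -0.14 without that library, where Ireb2 was called lower.

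The groups did not overlap for 6 of the 10 genes, against 29.1% of all genes tested. ScxKO was the higher group for 4 of them (14.8% of all genes) and the lower for 2 (14.3%). Nothing is read from these counts either, since the contrast helped to choose the genes. Mean levels per kb ran over about 3 orders of magnitude, with ferritin light chain mRNA highest and ferroportin mRNA lowest in both groups. Ftl1 was at 1081 ± 70.9 CPM per kb in ScxKO and 964 ± 54.9 in ScxWT, and Slc40a1 at 0.724 ± 0.0758 in ScxKO and 0.978 ± 0.0433 in ScxWT (SD, n = 4 each). The place of Scara5 in this order differed between the groups. In ScxKO cells Scara5 was at 0.890 ± 0.101 CPM per kb, where its range overlapped that of Slc40a1. In ScxWT cells it was at 6.99 ± 1.34 CPM per kb, where its range overlapped that of Steap3 at 5.23 ± 0.423.

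**Figure D2:**
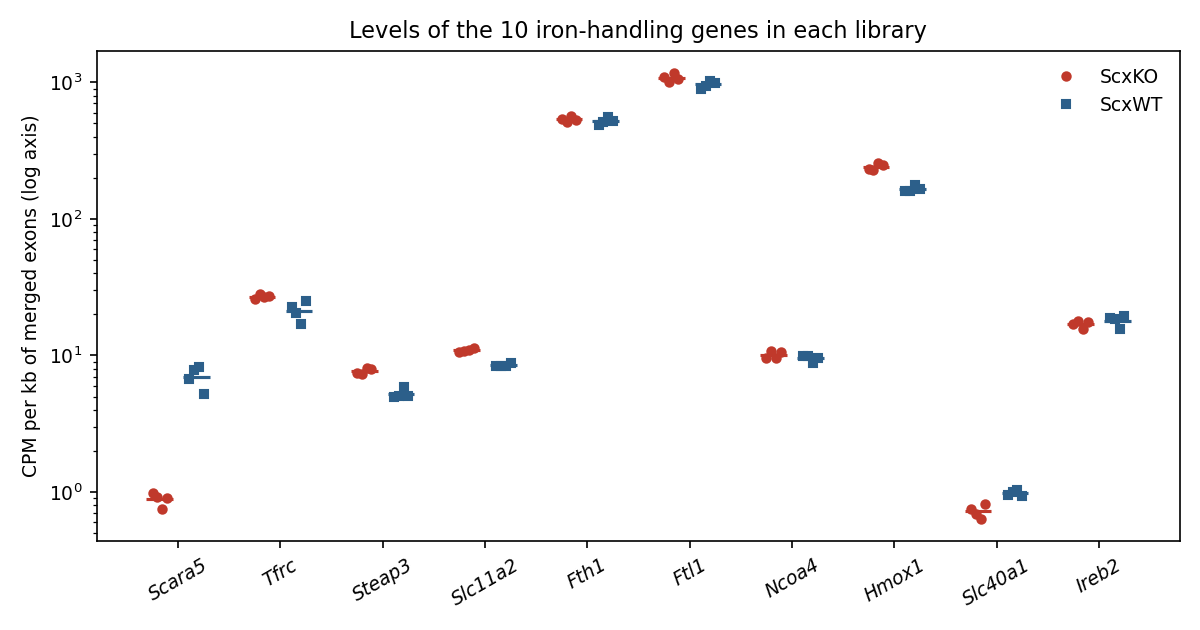
CPM per kb of merged exons on a log axis for the 10 genes in each of 4 ScxKO (circles) and 4 ScxWT (squares) libraries, with horizontal bars at the group means. Ftl1, Fth1 and Hmox1 lie above 100 in every library, and Scara5 moves down to the level of Slc40a1 in ScxKO.

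The level order of the ferritin genes and the ratio of Fth1 to Ftl1 RNA carry an uncertainty from near-identical copies. GENCODE M21 transcripts held 7 other genes at 90% identity or more to at least 70% of the Ftl1 coding sequence, 6 of them annotated as pseudogenes, with a highest identity of 99.6%. Ncoa4 had 1 such copy at 99.9% identity and Fth1 had 1 at 90.5%, while the other 7 genes had 0. None of these 9 copies has a row in the count table or in the authors' deposited table. The authors' deposited table gives a normalized mean of 136488 for Ftl1, which is 6.49 times the depth-scaled mean count. The same ratio was 4.93 for Ncoa4 and 2.72 for Fth1, while its median over 13053 genes was 1.26 and 4.45% of genes reached 2 or more. Scara5 stood at 1.26, and the other 5 genes apart from Hmox1, at 1.55, stood between 1.22 and 1.28. Whether reads shared with the copies account for these ratios was not tested. The log2 changes in the authors' deposited table were -2.96 for Scara5, 0.42 for Tfrc, 0.30 for Ftl1, 0.02 for Fth1 and 0.00 for Ncoa4. For Ftl1 the authors' value, with an SE of 0.04, was above the 0.17 found here from the counts. Which libraries and counts entered that table is not stated in the sources used here.

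**Figure D3:**
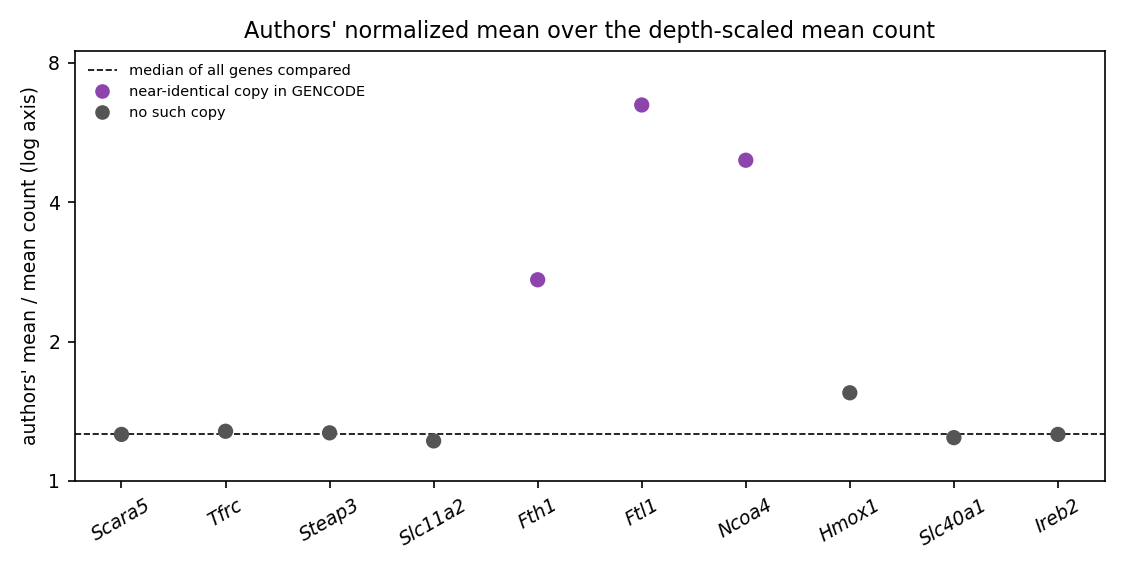
Ratio of the authors' normalized mean to the depth-scaled mean count (log axis) for each of the 10 genes, with genes that have a near-identical copy in purple and the median of all genes compared as a dashed line. Ftl1, Ncoa4 and Fth1, the genes with copies, lie at 6.49, 4.93 and 2.72, and the other genes lie at 1.55 or less.

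The wider pathway was read from 109 other genes of iron and heme handling, of which 92 passed the filter. They were listed by role, but with earlier results of these data known, so their counts and adjusted p-values are a description and no independent test. The called genes named below are those of smallest p in each list, at most 4. In the edgeR quasi-likelihood fit, with p adjusted by Benjamini and Hochberg's method over all genes, 23 of the 92 rose (25.0%, against 14.0% of all genes tested) and 7 fell (7.61%, against 14.5%). Their median log2 change was 0.03, against -0.01 over all genes tested. The 7 that fell include Cybrd1, which passed the filter only through the ScxWT libraries. The count that fell was 2 without ScxKO replicate 4 and 3 without ScxKO replicate 5. Each list below holds few genes, and the shares to set beside its counts are the same 14.0% higher and 14.5% lower.

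Genes of heme transport and of the transcription factors that control Hmox1 were among those that rose. Of 7 genes listed under these transcription factors, with Keap1 among them though not itself one, 4 rose, 0 fell and 3 did not pass the test. Bach1, the heme-sensing repressor of Hmox1, rose by 0.29 ± 0.05 on the log2 scale (SE, adjusted p = 0.000396 by edgeR), and so did Nfe2l2, the gene of the activator Nrf2, by 0.19 ± 0.04 (adjusted p = 0.00169). The small Maf genes Maff and Mafg, whose proteins pair with both, rose by 0.31 and 0.26. Of 10 genes of heme breakdown and transport 3 rose and 1 fell. Flvcr2, a transporter of the heme exporter family, was at 3.66 ± 0.509 CPM in ScxKO and 2.15 ± 0.206 CPM in ScxWT (SD, n = 4 each). The log2 change was 0.76 ± 0.14. Its relative Flvcr1, a heme exporter, rose by 0.34 and the heme and folate transporter gene Slc46a1 by 0.29. Abcg2, a transporter that can move porphyrins, fell by 0.20, but its adjusted p was 0.0632 to 0.0732 without ScxKO replicate 4, ScxKO replicate 5 or ScxWT replicate 6. The constitutive heme oxygenase gene Hmox2 had 52.3 ± 1.89 CPM in ScxKO and 52.2 ± 2.48 CPM in ScxWT and did not pass the test.

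In the endosome and lysosome list 4 of 7 genes rose and 0 fell. Atp6v0d1, a subunit of the proton pump that acidifies these compartments, was at 262 ± 5.5 CPM in ScxKO and 204 ± 7.60 CPM in ScxWT (SD, n = 4 each). On the log2 scale the change was 0.36 ± 0.04 (adjusted p = 6.49e-06 by edgeR). Mcoln1, a lysosomal channel that passes ferrous iron, rose by 0.38 ± 0.06, the pump accessory gene Atp6ap1 by 0.19 and the lysosomal heme transporter gene Slc48a1 by 0.15.

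Of 6 metal import and reductase genes 2 were called higher and 2 lower by edgeR, and DESeq2 called 1, Frrs1. Frrs1, a ferric reductase, rose by 0.37 ± 0.06 (adjusted p = 0.000189 by edgeR), and Cybrd1, a ferric reductase of the duodenum that was scarce here, was at 0.325 ± 0.133 CPM in ScxKO and 0.708 ± 0.102 CPM in ScxWT. Cybrd1 had 3 to 10 counts in ScxKO libraries and 14 to 19 in ScxWT libraries, and it passed the filter only through the ScxWT libraries, so its call as lower is no independent evidence. Steap1 rose by 0.17 and Slc39a8, a zinc transporter that can carry iron, fell by 0.21. Single libraries ended 3 of these calls. Cybrd1 had an adjusted p of 0.0505 to 0.0516 without ScxKO replicate 2 or 4, and Steap1 of 0.0559 to 0.105 without ScxKO replicate 3, 4 or 5 or ScxWT replicate 2 or 3. Slc39a8 had 0.0623 to 0.151 without ScxWT replicate 2 or 6 or any single ScxKO library. In the list of transferrin and receptor uptake 0 of 6 tested genes rose and 1 fell. This was Slc22a17, the lipocalin receptor gene, which fell by 0.52 ± 0.12 (adjusted p = 0.00354 by edgeR in the fit across all genes). Tfr2, Cd163 and Timd2, which encode other receptors for transferrin, hemoglobin or ferritin, were too low to be tested.

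Of 4 tested genes of export and the hepcidin pathway 2 were higher and 0 lower, and Heph and Bmp6 were not called. Cp, the gene of the ferroxidase ceruloplasmin, was at 2.47 ± 0.494 CPM in ScxKO and 1.32 ± 0.297 CPM in ScxWT (SD, n = 4 each). The log2 change was 0.90 ± 0.20 (adjusted p = 0.00307 by edgeR). Neo1, a co-receptor of the hepcidin pathway, rose by 0.22. Of 6 iron sensing genes 0 passed the test by edgeR, 0 had an unadjusted p under 0.05 and DESeq2 called 0. Aco1, the gene of iron regulatory protein 1, had 103 ± 3.99 CPM in ScxKO and 98.9 ± 4.57 CPM in ScxWT. The same 3 counts were 0 for the 4 tested genes listed as carrying an iron-responsive element outside the 10. They were also 0 for the 2 tested genes of the storage and chaperone list, the chaperone genes Pcbp1 and Pcbp2.

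Most mitochondrial iron genes did not pass the test, with 2 of 23 higher and 1 lower. Slc25a37, the gene of the mitochondrial iron importer mitoferrin 1, was at 148 ± 6.02 CPM in ScxKO and 104 ± 3.18 CPM in ScxWT (SD, n = 4 each). On the log2 scale the change was 0.50 ± 0.04 (adjusted p = 5.79e-07 by edgeR). Hspa9, a mitochondrial chaperone of iron-sulfur cluster assembly, rose by 0.29. The paralog mitoferrin 2, Slc25a28, fell by 0.23, with an adjusted p of 0.0578 to 0.116 without any single one of ScxKO replicates 3, 4 and 5 and ScxWT replicates 2, 3 and 5. In heme synthesis 2 of 9 genes rose and 1 fell, each by 0.16 or less. Alas1, the first enzyme, rose by 0.16, Tmem14c by 0.15, and Fech, which inserts iron, fell by 0.14. Each of these calls was lost in edgeR fits without ScxKO replicate 4 or ScxKO replicate 5. The adjusted p was 0.15 and 0.112 for Alas1, 0.106 and 0.0972 for Tmem14c, and 0.0536 and 0.0674 for Fech. Alas1 also lost it without ScxKO replicate 3 or ScxWT replicate 2 or 6, and Tmem14c without ScxWT replicate 2 or 6.

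Of 6 genes of lipid peroxide defence and ferroptosis, an iron-dependent form of cell death, 4 rose and 0 fell. Acsl4, which loads polyunsaturated fatty acids into membrane lipids, rose by 0.37 ± 0.08 (adjusted p = 0.00285 by edgeR), the lipid peroxidase gene Gpx4 by 0.19, and Gch1, which starts tetrahydrobiopterin synthesis, by 0.46. Slc7a11, the cystine transporter gene, rose by 0.29, with an adjusted p of 0.0556 to 0.119 without ScxKO replicate 3 or 5 or ScxWT replicate 2 or 3. Among relatives of Scara5 in the class A scavenger receptors, Scara3 fell by 0.47 ± 0.07 (adjusted p = 8.17e-05 by edgeR). Colec12 had 502 ± 16.9 CPM in ScxKO and 509 ± 24.7 CPM in ScxWT and did not pass, and the macrophage receptor genes Msr1 and Marco were too low to be tested.

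**Figure D4:**
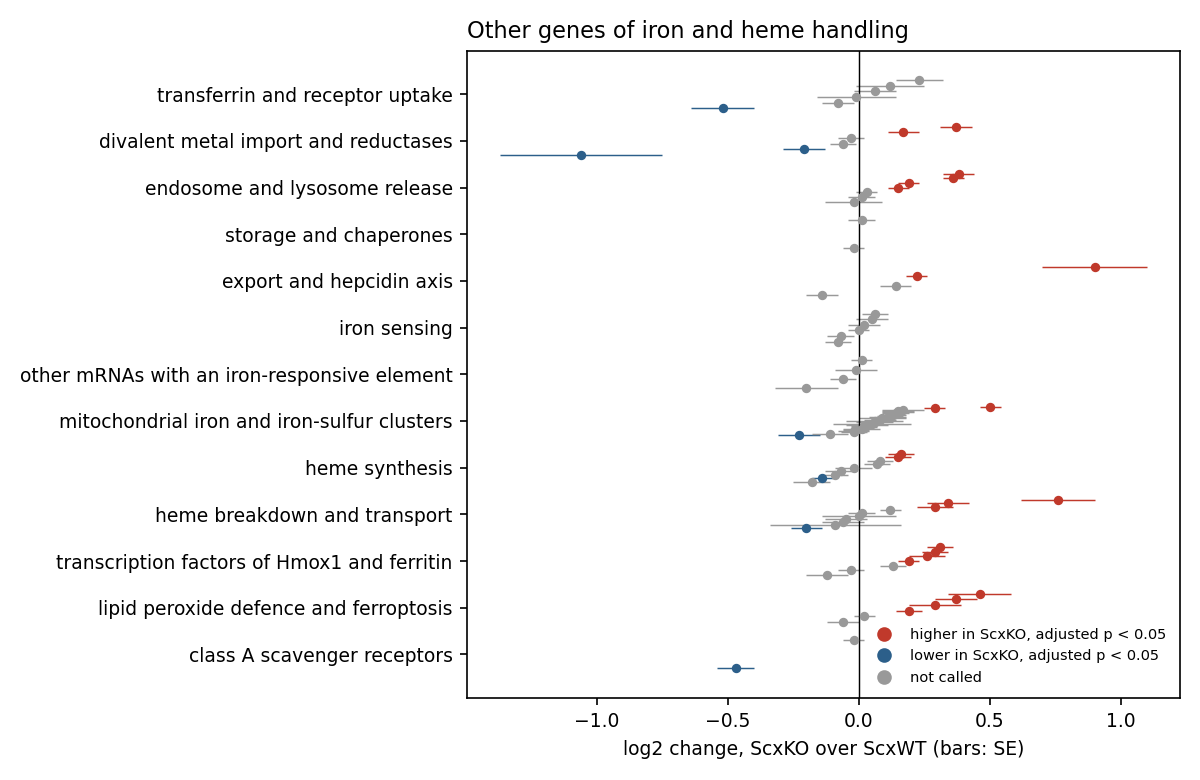
log2 change of ScxKO over ScxWT (x axis, bars are SE) for the 92 tested genes of iron and heme handling outside the 10, grouped by role, with genes called higher in red, called lower in blue and not called in grey. The transcription factor, lysosome and ferroptosis groups hold 4 higher genes each and 0 lower, and the iron sensing group holds 0 called genes. Over all genes tested 14.0% were called higher and 14.5% lower. The groups are small and were listed with earlier results of these data known.

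The 5 genes whose profile over the 8 libraries was most like that of Scara5 were Eln, Pi16, Aspn, Dner and St8sia2. They were sought among 10383 genes averaging 5 CPM or more, leaving out predicted genes with Gm or Rik symbols. Likeness was the root mean square difference of log2 CPM centred on each gene's mean, and it was 0.233 for Eln and 0.408 to 0.607 for the others. Eln, the elastin gene, averaged 11.7 CPM in ScxKO and 84.9 CPM in ScxWT, and Pi16, a gene of adventitial fibroblasts, 2.56 CPM in ScxKO and 13.3 CPM in ScxWT. This is a description of 8 libraries that differ mainly by group.

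Most listed markers of fibroblast types were lower in ScxKO cells, as Scara5 was. The 8 tendon fibroblast markers, which include Scx, summed to 5839 to 6522 CPM in ScxKO and 7808 to 9925 CPM in ScxWT. Of them 7 were called lower, where 14.5% of all genes tested were, and Mkx was not called. The 7 include Scx itself, the deleted gene, which passed the filter only through the ScxWT libraries, so its call is no evidence here. The 9 markers of sheath or adventitial fibroblasts, Pi16 among them, summed to 1160.4 to 1212 CPM in ScxKO and 1351 to 1565 CPM in ScxWT. Of these 7 were called lower and 0 higher, and Dpp4 and Ly6a were not called. Ly6a, the largest part of the sum, was at 514 CPM in ScxKO and 544.9 CPM in ScxWT. Clec3b, one of the 7, had 7 to 29 counts in ScxKO libraries and 129 to 306 in ScxWT libraries. It reached the minimum of the filter in 3 ScxKO libraries and 4 ScxWT libraries. The part of these fibroblast types in the Scara5 result was not tested. Macrophages hold much Hmox1 and ferroportin. The 10 macrophage and leukocyte markers summed to 23.3 to 26.8 CPM in ScxKO and 20.1 to 22.8 CPM in ScxWT. Of the 4 tested 2 were called higher, where 14.0% of all genes tested were. The 2 were Cd68, at 4.64 CPM in ScxKO and 3.05 CPM in ScxWT, and Csf1r, at 2.975 CPM in ScxKO and 1.795 CPM in ScxWT. Most of the sum was Cd14, which was at 15.09 CPM in ScxKO and 14.3 CPM in ScxWT and was not called. Lyz2, also tested, was at 1.401 CPM in ScxKO and 1.567 CPM in ScxWT and was not called either. The pan-leukocyte gene Ptprc had 0 to 2 counts in any library, Fcgr1 had 0 in all, and the 4 globin genes of the erythroid list had 0 in all. The 5 endothelial markers summed to 48.7 to 53.7 CPM in ScxKO and 68.1 to 86.1 CPM in ScxWT, most of it Tek. Of the 3 tested Tek was called lower and Kdr higher, at 3.07 CPM in ScxKO and 2.18 CPM in ScxWT, and Cdh5 was not called. The muscle, Schwann cell and keratinocyte lists summed to at most 35.8 CPM in ScxKO and 40.2 CPM in ScxWT.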

How the data were processed

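RNA-seq counts per gene symbol were used as deposited by the authors for 4 ScxKO and 4 ScxWT libraries. The submitters' processing notes name the build mm10, STAR, FastQC and DESeq2, without roles or versions, and no source used here gives the counter or whether it used strand. Reads counted as outside any gene (7.44 to 8.673% per library) or as ambiguous (0.4898 to 0.5671%) were left out. The authors' deposited table holds, per the file headers, a normalized mean signal over libraries, a log2 fold change, the scores lfcSE and stat, and p-values. The direction of its fold change was read from the fall of Scx.

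Counts were tested with edgeR 4.0.16 in R 4.3.3 (quasi-likelihood F test, group only, TMM factors, filterByExpr with a minimum count of 10 and total of 15), with Benjamini-Hochberg adjustment over 13125 genes and a threshold of 0.05. The procedure was tested on simulated data. Alternatives used DESeq2 1.42.0, limma 3.58.1, other scalings and filters, a correction for GC content and length, replicate numbers as a block, and each library left out. Genes were placed by symbol in GENCODE M21 on GRCm38, where 24490 symbols matched. The 10 genes and all lists were chosen with earlier results of these data known. All 10 and Scx are named, with up to 4 called genes of smallest p per role list and the 5 genes most like Scara5. Other genes given values, such as Hmox2, Aco1, Colec12, Trf, Kdr and Tnmd, were named after their values were seen.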

Additional observations from a re-analysis of the deposited data

Results flagged for a closer look

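Among 82 groups of 4 libraries looked at, over 41 genes, 2 held a library far from the others, by Dixon's criterion at the 95% level (the gap to the nearest library as a share of the group's range). Chance flags about 1 in 20 groups. Steap3 in ScxWT replicate 5 was 33.0 CPM, against 28.0 to 28.7 CPM in the other ScxWT libraries, a gap of 0.854 of the range. Atp6v0d1 in ScxWT replicate 5 was 216.0 CPM, against 200.3 to 201 CPM in the other ScxWT libraries, a gap of 0.967 of the range. Both were in the library that stood apart on the second principal component.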

How the results depend on the processing

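Of the values of 41 genes under 17 alternatives, 607 kept their direction and side of the threshold, 83 lost the call, 1 gained it and 1 reversed. Cp, Cybrd1, Flvcr2, Gch1 and Slc40a1 have no value under the 5 CPM filter, which removes them. The reversed value was Ireb2, at 0.03 with the GC and length correction. Of the 10 genes, 1 was called lower, in place of 2, with at least 5 CPM in 4 libraries, by DESeq2, and on numbers 2, 3 and 5 with and without the replicate block. The gene lost was Slc40a1. Upper-quartile scaling and those numbers, with and without the block, left 4 called higher, without Ftl1. Other iron genes called lower were 4 by DESeq2 and 2 on those numbers with and without the block, against 7. Marker genes called higher were 0 with the 5 CPM filter and 1 on those numbers with and without the block, against 3. Over all genes, 1239 were called lower on those numbers without the block and 1616 with it, and 1289 and 1585 higher, against 1902 lower and 1842 higher with all libraries. Upper-quartile scaling called 1539 higher and 2288 lower, and the GC and length correction 2737 higher and 2214 lower, against the same counts. With each library left out in turn, the 10 genes had 4 to 5 called higher and 1 to 3 lower, the other iron genes 19 to 28 higher and 2 to 8 lower, the marker genes 2 to 4 higher and 16 to 18 lower, and all genes 1447 to 2409 higher and 1427 to 2310 lower. The cause of these shifts was not tested, beyond the fewer genes or libraries that a filter or a left-out library brings. Replicate numbers shared by the groups were not taken as pairs. The correlation of their deviations was -0.141 for number 2, 0.334 for number 3 and 0.182 for number 5, and numbers 3 and 5, but not 2, correlated best with their own number. Slc40a1 and Cybrd1 rest on few counts per library, which bounds the precision of their values.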
